A study of Mus musculus with 6 samples.

Results

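Voltage-gated calcium channels, voltage-gated sodium channels, transient receptor potential (TRP) channels and hyperpolarization-activated (HCN) channels were compared between astrocyte-tagged ribosomes of the diencephalon and of cortical grey matter. The genes were taken by symbol: Cacna, Cacnb and Cacng genes, Scn genes with a number and an a or b, Trpa, Trpc, Trpm and Trpv genes with a number, and the numbered Hcn genes. The rule took 68 of the 23955 genes in the files. No measured value entered it, but it was chosen with earlier results of these data known. Of these, 66 encode channel subunits. Trpc4ap, a protein that binds TRPC4, and Trpc5os, a gene on the strand opposite Trpc5, match the symbol pattern only and are kept apart below.

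The study sequenced mRNA from tagged ribosomes in 6 libraries, 3 per region. All mice had the same genotype, given as Slc1a3 +/-, GFP+ and Rpl22HA fl/fl on a C57BL/6 strain. The line joined Slc1a3tm1(cre/ERT2)Mgoe, in which the locus of an astrocyte glutamate transporter drives a tamoxifen-dependent Cre, with B6N.129-Rpl22 tm1.1Psam/J, whose ribosomal protein gains a haemagglutinin tag after Cre, and with the green fluorescent reporter transgene Tg(CAG-cat,-EGFP)1Rbns. Both groups received tamoxifen by gavage 3 times, 48 hours apart, at 9 weeks, and were used at 3 months, with both sexes included. Each library pooled 3 mice. The diencephalic group was diencephalon without the tissue at the third ventricle, and the cortical group was grey matter cleared of meninges and white matter. The only labelled difference between the groups is the region. Libraries of total tissue RNA or of mice without the tag were not analysed here.

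Voltage-gated calcium and sodium channels are built round 1 large pore-forming alpha subunit that opens on depolarization, and smaller auxiliary subunits set its delivery to the membrane and its gating. HCN channels open on hyperpolarization and carry a depolarizing current that paces rhythmic firing, above all in thalamic and other pacemaking neurons. TRP channels are mostly calcium-permeable cation channels opened by lipids, receptors, temperature or chemical ligands, and in astrocytes they are among the routes by which calcium enters the cell.

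Of the 66 subunit genes, 60 had at least 1 count and 44 had enough counts to be tested. With edgeR's quasi-likelihood test at an adjusted p of 0.05, 20 were higher in the diencephalon, 8 were lower and 16 did not pass. That is 63.6% of those tested, against 29.6% of all 10568 genes tested. The excess was on the higher side, with 45.5% of the channels against 14.9% of all genes, while 18.2% of the channels and 14.8% of all genes were lower. The median log2 difference (diencephalon minus cortical grey matter) was 0.44 over the 44 channels and 0.01 over all genes tested. Every one of the 28 channels that passed had libraries of the regions that did not overlap, but the share of non-overlap among all genes that passed was not counted. Counting non-overlap alone gave 30 of 44 channels, or 68.2%, against 42.6% of all genes. The genes that were higher differed by 1.35 to 17.2-fold, 9 of them by over 2-fold, and the lower ones by 1.42 to 2.75-fold, 3 of them by over 2-fold. Of the 44, 42 reached the filter's level of 5.22 CPM in at least 1 library of each region, and Scn9a and Hcn4 reached it in the diencephalon only. Among the 42, 18 were higher and 8 lower, and the share of all genes under the same restriction was not counted. On log2(TPM + 1), 68.9% of the calls over all genes were higher, against 50.2% in the main test, and Cacna1e and Cacna2d1, among others, did not pass as lower. Summed over the 66 genes, the level was 4877, 4803 and 4873 CPM in the diencephalic libraries and 4445, 4501 and 5048 CPM in the cortical ones, which overlap. In TPM the sums did not overlap, at 3226, 3408 and 3374 against 2867, 2808 and 3153, a ratio of 1.13. On log2(TPM + 1) the median difference of all genes was itself 0.22, so this ratio is not read as particular to the channels. CPM are counts scaled to a common library size by TMM, and values below are listed for replicates 1, 2 and 3 of each region.

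**Figure D1:**
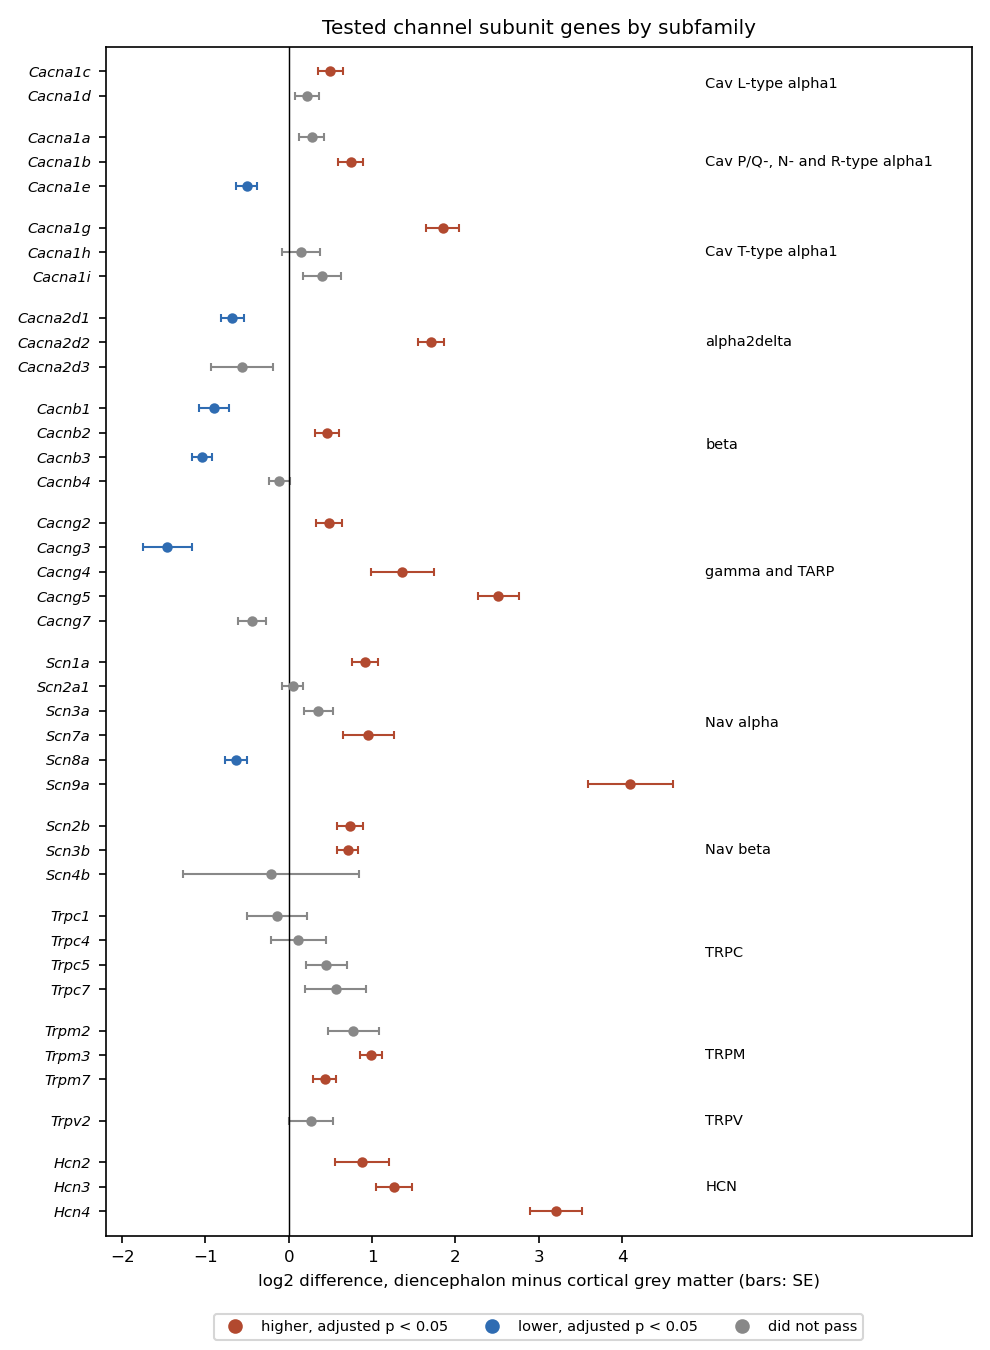
Each point is the fitted log2 difference (diencephalon minus cortical grey matter) of 1 of 40 tested channel subunit genes, with bars of 1 SE, grouped by subfamily. The 18 red points passed the edgeR test as higher and the 6 blue points as lower; most subfamilies hold points on both sides of 0, whereas no TRP point is blue.

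Library totals ran from 1733145 to 2334237 counts, so that 3 counts, the smallest number taken as a level, stand for 1.30 to 1.85 CPM. Slc1a3, whose locus drives Cre, was itself lower in the diencephalon, at 714, 732 and 776 against 1131, 1248 and 737 CPM (log2 difference -0.49 ± 0.16, SE, edgeR adjusted p = 0.0244), a call lost in 8 of 16 alternatives. Rpl22, which carries the tag, did not pass, at 20.7 to 26.4 against 22.5 to 30.1 CPM (-0.24 ± 0.23, adjusted p = 0.474, edgeR). The counts of cortical replicate 3 were farther from those of its group than any others, with a chi-square of 6.31 and 7.39 per degree of freedom, where cortical replicates 1 and 2 gave 2.70. Without it, all 28 channel calls were kept, and Cacna1a, Trpc5 and Trpc7 passed as well, for 23 higher and 8 lower against 31.2% of all genes called. The astrocyte list of 12 markers was detected throughout, at 18936 to 22061 CPM in the diencephalic and 27820 to 34809 CPM in the cortical libraries. Of the 12, 6 passed as lower in the diencephalon and 1 as higher. The cortical excess of the sum was 1.59-fold, and 1.42-fold without Slc1a2, its most abundant gene.

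Markers of other cells moved with region, and channel genes are also used by those cells. Of 8 subcortical excitatory neuron markers, all had higher means in the diencephalon, with sums of 524 to 611 CPM against 62.2 to 68.1 CPM, and the hypothalamic peptides Pmch and Hcrt had no count in cortical libraries. Of 8 cortical excitatory neuron markers, 7 passed as lower, with sums of 632 to 975 CPM against 4801 to 5648 CPM, and Emx1 had no count in either region. The pan-neuronal list summed to 2420 to 2540 CPM against 3322 to 4564 CPM, with 3 of 12 genes passing as higher (Tubb3, Stmn2 and Eno2) and 3 as lower (Rbfox3, Snap25 and Syn1). The 6 inhibitory neuron markers summed to 211 to 247 CPM against 155 to 208 CPM, with 3 means higher and 3 lower, and the ratio of the sums fell from 1.25 to 0.586 without Gad2. Vip had no count in the diencephalon and Pvalb none in the cortex. Oligodendrocyte markers summed to 1676 to 2228 CPM against 756 to 989 CPM, with 6 of 8 passing as higher. Oligodendrocyte progenitor markers summed to 166 to 190 CPM against 238 to 250 CPM, microglial markers to 164 to 285 CPM against 223 to 483 CPM, and endothelial and mural markers to 84.6 to 113 CPM against 139 to 258 CPM. In the endothelial and mural list Vtn alone of 4 tested genes passed, and the cortical excess was 2.18-fold with it and 1.21-fold without it. Meningeal markers summed to 406 to 652 CPM against 3339 to 6249 CPM, and ependymal and choroid plexus markers to 102 to 134 CPM against 4.31 to 28.0 CPM. Without their most abundant genes, Ptgds and Ttr, these lists differed by 3.38-fold and 4.09-fold in place of 9.00-fold and 8.08-fold. The part of these cells in the channel differences was not tested. In such bulk libraries, fewer cells of a type and less RNA per cell cannot be told apart.

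**Figure D2:**
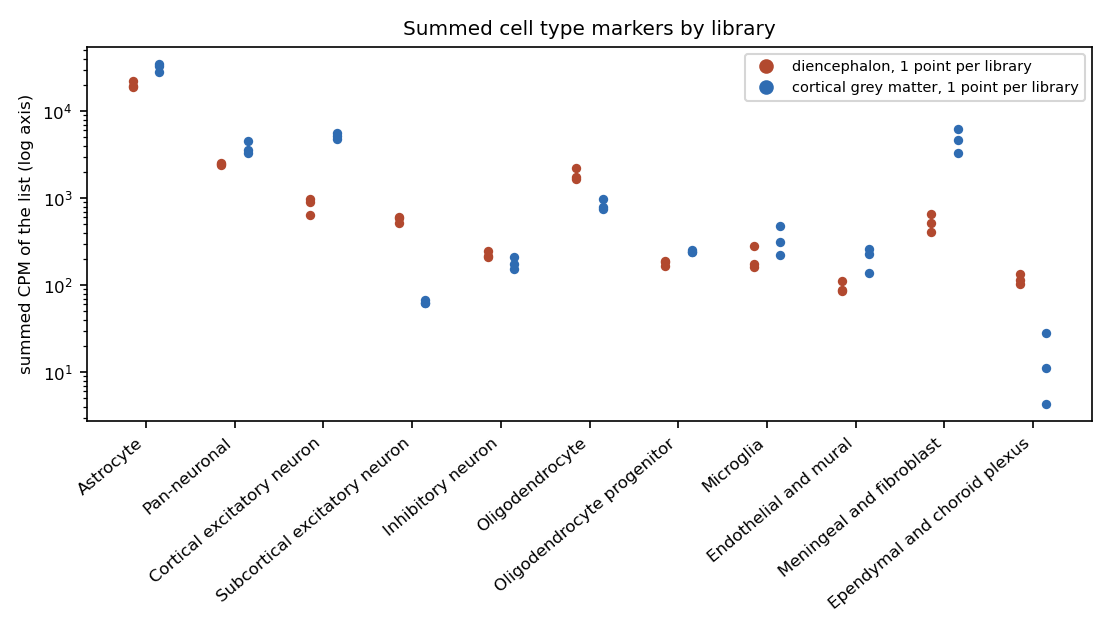
Summed CPM of 11 cell type marker lists on a log axis, 1 point per library, red for the diencephalon and blue for cortical grey matter. The subcortical neuron, cortical neuron, meningeal and ependymal lists are separated between the regions by the widest gaps, whereas the astrocyte list is the most abundant in every library.

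Among the HCN genes, Hcn4 had the largest fold, but it passed the count filter through the diencephalic libraries only. Hcn4, the slowly opening member known for the pacemaker current of the heart, was at 32.0, 29.2 and 39.3 CPM in the diencephalon and at 4.33, 3.70 and 2.46 CPM in the cortex. All diencephalic libraries were far above all cortical ones, which held 21 counts in all against 201. The log2 difference was 3.20 ± 0.31 (SE), a 9.22-fold difference, with an edgeR adjusted p of 7.15e-08. Hcn3, a slow member with little response to cyclic AMP, was at 43.6, 39.2 and 40.4 against 19.5, 13.7 and 17.9 CPM (1.26 ± 0.22, 2.40-fold, adjusted p = 0.000115, edgeR). No library of Hcn3 or Hcn4 crossed into the range of the other region. Hcn2, widely used across the brain, was at 13, 25.1 and 13.5 against 8.65, 8.98 and 10.5 CPM (0.87 ± 0.33, adjusted p = 0.0468, edgeR). Its difference rested on single libraries: without diencephalic replicate 2 its adjusted p was 0.348, and it was 0.0501, 0.127 and 0.112 without diencephalic replicate 3 and cortical replicates 1 and 2.

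The make-up of the family was compared in TPM, the authors' values per transcript length and library. Hcn4 made up 25.8% ± 3.90 (SD, n = 3) of HCN transcripts in the diencephalon and 4.39% ± 1.49 in the cortex, and Hcn3 37.2% ± 3.88 and 24.6% ± 4.32. Hcn3 was thus the leading member in the diencephalon. In the current RefSeq annotation, Hcn3 overlaps Pklr, a pyruvate kinase gene, and the strand setting of the counting is not given in the sources used here.

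Among the pore-forming calcium channel genes, the T-type, which opens near the resting potential and gives the low-threshold spikes of thalamic bursting, differed most. Cacna1g, its main thalamic gene, was at 92.2, 79.4 and 120 CPM in the diencephalon and 23.4, 26.9 and 31.4 CPM in the cortex. The lowest diencephalic library was over the highest cortical one by a wide margin. Its log2 difference was 1.85 ± 0.19 (SE), 3.59-fold, with an edgeR adjusted p of 1.9e-07. The other T-type genes did not pass: Cacna1h was at 30.6, 24.0 and 26.4 against 29.9, 23.2 and 19.7 CPM (95% interval of the log2 difference -0.33 to 0.62), and Cacna1i at 41.2, 57.5 and 41.4 against 33.7, 48.6 and 23.4 CPM (-0.08 to 0.88). Their libraries overlapped between regions. The T-type sum was 1.97 times as high in the diencephalon, and Cacna1g made up 59.3% ± 6.89 of T-type TPM there and 34.4% ± 8.93 in the cortex.

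The high-voltage-activated pores that trigger transmitter release split by gene. Cacna1b, the N-type pore of presynaptic terminals, was at 141, 140 and 187 CPM in the diencephalon and 99.1, 80.8 and 99.8 CPM in the cortex (0.74 ± 0.15, 1.67-fold, edgeR adjusted p = 0.000542). Cacna1e, the R-type pore, was at 261, 284 and 294 against 398, 360 and 434 CPM (-0.51 ± 0.12, adjusted p = 0.00323, edgeR). For both genes the regions did not overlap. Cacna1a, the P/Q-type pore, did not pass, at 164, 193 and 180 against 126, 133 and 187 CPM (95% interval -0.03 to 0.58), with cortical replicate 3 inside the diencephalic range. The share of Cacna1e in the TPM of these 3 genes was 35.9% ± 0.726 in the diencephalon and 52.2% ± 2.24 in the cortex.

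Of the L-type pores, which couple depolarization to gene expression and secretion, Cacna1c passed narrowly, at 196, 227 and 178 against 150, 109 and 168 CPM (0.50 ± 0.15, 1.41-fold, edgeR adjusted p = 0.0155). The gap between the regions was small, and the adjusted p was 0.107 without diencephalic replicate 2, 0.122 without cortical replicate 2 and 0.0668 once the trend on gene length was removed. Cacna1d was at 96.4, 107 and 125 against 91.7, 84.5 and 107 CPM, overlapping between regions (95% interval -0.09 to 0.52). Cacna1s, the skeletal muscle pore, was too low to test, with 14 counts against 2, and Cacna1f, the retinal pore, had 2 counts in all.

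The alpha2delta subunits, which carry pores to the surface and of which the first and second bind gabapentinoid drugs, changed places. Cacna2d2 was at 120, 127 and 144 CPM in the diencephalon and 39.8, 41.2 and 38.8 CPM in the cortex, with a log2 difference of 1.71 ± 0.15 (SE), 3.27-fold, and an edgeR adjusted p of 1.84e-08. Cacna2d1 was at 141, 131 and 123 against 189, 197 and 248 CPM (-0.68 ± 0.14, adjusted p = 0.000542, edgeR). Neither gene overlapped between regions, and in opposite directions. As shares of alpha2delta TPM, Cacna2d2 made up 52.6% ± 3.67 in the diencephalon and 18.3% ± 3.09 in the cortex, and Cacna2d1 39.1% ± 3.47 and 70.3% ± 1.99. The sum of the 4 genes overlapped between regions in CPM, at 276, 273 and 283 against 238, 257 and 313. It did not in TPM, at 166, 169 and 177 against 116, 124 and 158, where all genes had a median log2 difference of 0.22 on log2(TPM + 1). Cacna2d3 did not pass, at 12.5, 9.40 and 9.84 against 7.36, 15.3 and 25.9 CPM, a wide spread in the cortex (95% interval -1.33 to 0.22).

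The beta subunits bind the pore from the inside and govern its folding and inactivation, and here 2 of 4 were lower and 1 higher. Cacnb3 was at 134, 143 and 133 CPM against 301, 280 and 262 CPM (-1.04 ± 0.12, 2.06-fold lower, edgeR adjusted p = 1.13e-06). Cacnb1 was at 33.4, 45.4 and 36.8 against 68.8, 81.8 and 65.3 CPM (-0.90 ± 0.18, adjusted p = 0.000545, edgeR), again with no overlap. Cacnb1 overlaps the ribosomal protein gene Rpl19 in RefSeq, and without a known strand setting their reads cannot be told apart where they share sequence. Cacnb2 was higher, at 159, 166 and 195 against 116, 107 and 156 CPM (0.46 ± 0.15, adjusted p = 0.0218, edgeR). The regions came close for Cacnb2, and its adjusted p was 0.133, 0.0928 and 0.127 without diencephalic replicate 3, cortical replicate 1 and cortical replicate 2. Cacnb4 did not pass, at 314, 323 and 281 against 301, 318 and 379 CPM (95% interval -0.38 to 0.15). Cacnb3 was the leading beta gene in both regions, with 35.0% ± 0.972 of beta TPM in the diencephalon and 50.5% ± 4.19 in the cortex.

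**Figure D3:**
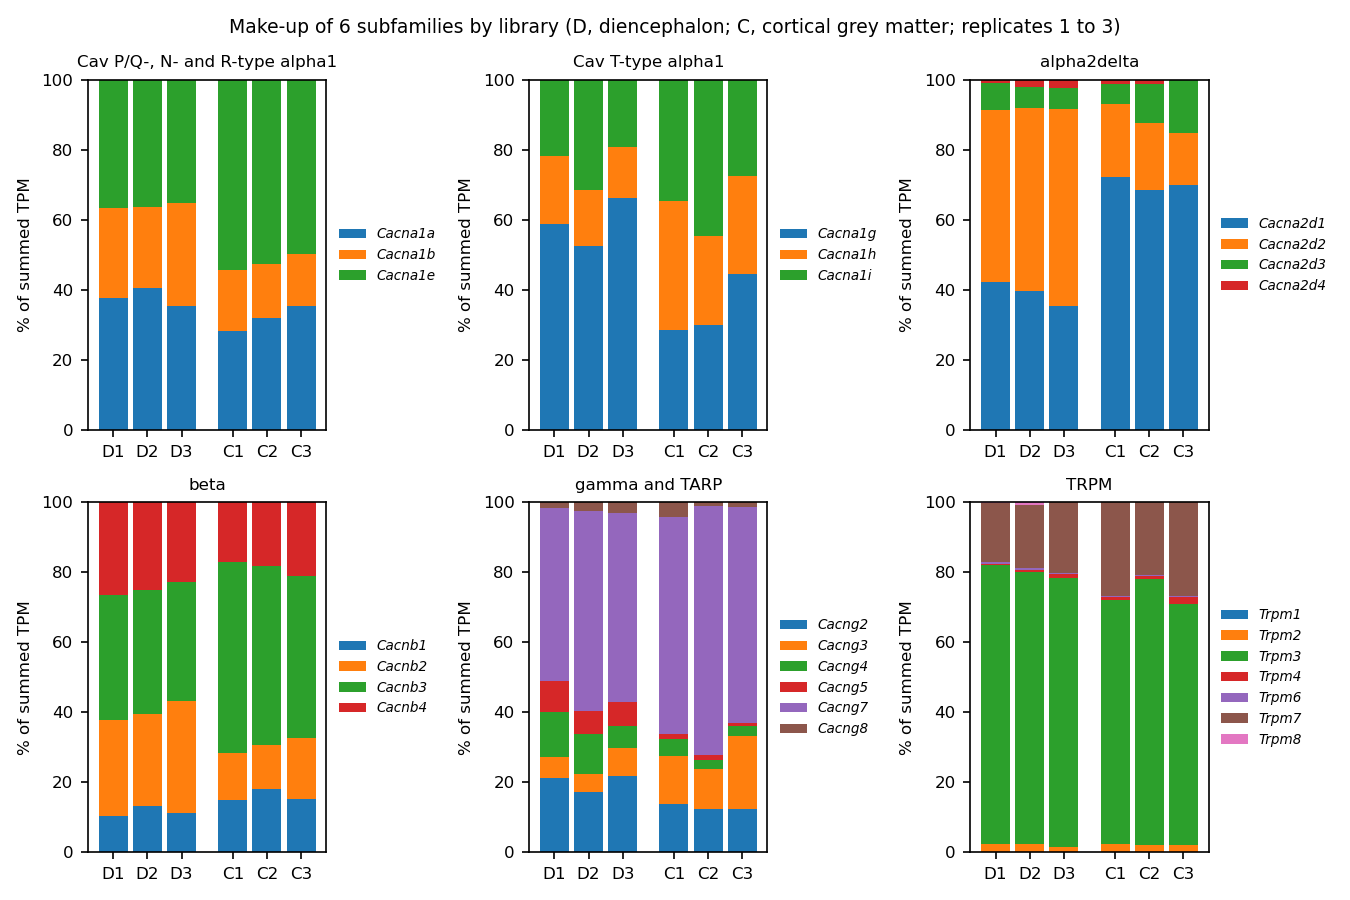
Stacked bars give each gene's share of the summed TPM of its subfamily in every library (D, diencephalon; C, cortical grey matter; replicates 1 to 3). Cacna1g, Cacna2d2, Cacna1b and Cacng5 take larger shares in all D bars than in any C bar, and Cacna2d1, Cacnb3, Cacna1e and Cacng3 larger shares in all C bars.

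The Cacng genes encode the gamma subunit of muscle calcium channels and its relatives, most of which are transmembrane AMPA receptor regulatory proteins (TARPs) that deliver these glutamate receptors to the membrane and slow their closing. Of the 8 genes, 5 were tested, with 3 higher and 1 lower. Cacng5 differed most, at 46.3, 43.9 and 41.9 CPM in the diencephalon and 9.09, 7.39 and 6.16 CPM in the cortex (2.51 ± 0.25, 5.71-fold, edgeR adjusted p = 7.58e-08). Cacng3, a TARP of forebrain neurons, was the most reduced of all 44 channel genes, at 12, 12.5 and 18.1 against 32.9, 26.4 and 59.8 CPM. Its cortical libraries were all higher but lay far apart (-1.46 ± 0.29, 2.75-fold lower, adjusted p = 0.000706, edgeR). Cacng4, a TARP, was at 15.3, 16.7 and 8.80 against 6.92, 3.70 and 4.93 CPM (1.36 ± 0.38, adjusted p = 0.00883, edgeR), and without diencephalic replicate 2 its adjusted p was 0.0540. It reached the count filter's level in 3 diencephalic libraries but in only 1 cortical library, so it passed the filter mainly through the diencephalon. Cacng2, stargazin, the best-known TARP, was at 84.8, 84.6 and 100 against 65.3, 57.5 and 70.8 CPM (0.48 ± 0.15, adjusted p = 0.0220, edgeR). Its adjusted p was 0.121, 0.0552 and 0.104 without diencephalic replicate 3, cortical replicate 1 and cortical replicate 2.

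Cacng7 was the most abundant of all 66 channel genes per length in both regions, at 330 ± 60.9 TPM (SD, n = 3) in the diencephalon and 386 ± 34.4 TPM in the cortex. It is a TARP of the second type. Its CPM of 47.3, 66.9 and 59.0 against 71.0, 79.2 and 85 did not overlap, but the test fell just short (-0.44 ± 0.17, adjusted p = 0.0527, edgeR). The gene model in the files is only 828 bases long, and once the trend on gene length was removed the log2 difference was 0.027 (adjusted p = 0.929, edgeR).

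Sodium channel alpha genes differed in both directions. Scn8a, the pore of nodes of Ranvier and mature axon initial segments, was the most abundant alpha gene and the one that was lower, at 778, 706 and 697 CPM in the diencephalon and 1010, 1091 and 1295 CPM in the cortex (-0.64 ± 0.13, 1.55-fold lower, edgeR adjusted p = 0.000861). All cortical libraries lay above all diencephalic ones. In sum the alpha genes were 1.22 times as high in the cortex in CPM, whereas their TPM sums overlapped, at 466, 453 and 472 against 432, 444 and 534. Its share of alpha TPM was 52.1% ± 2.52 in the diencephalon and 69.4% ± 1.23 in the cortex. Scn1a, the pore of fast-spiking inhibitory neurons, was at 158, 123 and 128 against 58.4, 72.9 and 88.1 CPM (0.91 ± 0.16, 1.88-fold, adjusted p = 0.000135, edgeR). Scn2a1, the pore of axon initial segments of excitatory neurons, did not pass, at 223, 229 and 264 against 234, 210 and 249 CPM, with a 95% interval of -0.21 to 0.31. Scn3a, the embryonic-type pore, was at 63.0, 90.9 and 86.5 against 51.9, 71.3 and 65.3 CPM and did not pass (-0.01 to 0.72).

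Scn9a, the pore known from pain-sensing neurons, had the largest fold of all channel genes in the edgeR fit. Its CPM were 13.9, 21.4 and 29.5 in the diencephalon and 1.30, 2.11 and 0 in the cortex, from 128 and 7 counts. Each cortical library was near or under the level of 3 counts, so Scn9a passed the count filter through the diencephalic libraries only. The log2 difference was 4.10 ± 0.51 (SE), 17.2-fold, with an edgeR adjusted p of 2.2e-06, and the size of such a fold is set by very few cortical reads. On log2(TPM + 1) the difference was 2.73, below the 3.11 of Hcn4, and without cortical replicate 2 it was 4.72 in the edgeR fit. Scn7a encodes the sodium-level sensor Nax, which glia of the circumventricular organs use to sense body sodium. It was at 18.1, 14.1 and 19.2 against 6.92, 10.03 and 9.86 CPM (0.95 ± 0.30, 1.94-fold, adjusted p = 0.0215, edgeR). The regions did not overlap, but the adjusted p was 0.0616, 0.0893 and 0.102 without diencephalic replicate 1, diencephalic replicate 3 and cortical replicate 1.

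Scn1a, Scn9a and Scn7a, all higher in the diencephalon, lie next to each other on chromosome 2, with no other protein-coding gene between them in RefSeq (GRCm38.p6). Scn3a and Scn2a1, neither of which passed, form the neighbouring pair, with 3 protein-coding genes between Scn2a1 and Scn1a. The promoters of Scn1a, Scn9a and Scn7a are shown because all 3 passed in the same direction, and shared control was not tested. Scn9a passed the count filter through the diencephalic libraries only, and the call of Scn7a was lost in 7 of 15 alternatives. How often neighbouring genes pass in the same direction was not counted over all genes. The windows are the 250 bases before the annotated start in RefSeq on GRCm38.p6, with each CG in capitals. They are at chr2:66440838-66441087, chr2:66634963-66635212 and chr2:66784911-66785160, all on the minus strand.
Scn1a: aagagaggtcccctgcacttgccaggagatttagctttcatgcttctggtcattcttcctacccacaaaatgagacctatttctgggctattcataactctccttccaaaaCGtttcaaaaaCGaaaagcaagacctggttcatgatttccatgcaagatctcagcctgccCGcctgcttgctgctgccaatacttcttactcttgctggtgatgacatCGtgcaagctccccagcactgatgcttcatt
Scn9a: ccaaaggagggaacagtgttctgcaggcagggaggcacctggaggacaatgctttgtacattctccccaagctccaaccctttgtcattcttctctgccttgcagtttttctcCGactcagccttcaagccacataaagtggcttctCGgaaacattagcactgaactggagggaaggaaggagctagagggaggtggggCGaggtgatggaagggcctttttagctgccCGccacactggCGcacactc
Scn7a: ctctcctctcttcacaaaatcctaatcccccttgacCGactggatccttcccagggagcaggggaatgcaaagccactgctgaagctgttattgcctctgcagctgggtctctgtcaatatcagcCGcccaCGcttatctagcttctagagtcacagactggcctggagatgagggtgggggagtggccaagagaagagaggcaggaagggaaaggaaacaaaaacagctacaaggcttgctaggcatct
These windows hold 4, 5 and 3 CG pairs, against a median of 6 in the 32851 promoter windows of the table, of which 92.1% hold at least 1. Their GC content is 46.8%, 54.4% and 53.2%, against a median of 52.4%. For comparison, the same window of Hcn4, the channel with the second largest fold in the edgeR fit and with the same direction, is at chr9:58822699-58822948 on the plus strand.
Hcn4: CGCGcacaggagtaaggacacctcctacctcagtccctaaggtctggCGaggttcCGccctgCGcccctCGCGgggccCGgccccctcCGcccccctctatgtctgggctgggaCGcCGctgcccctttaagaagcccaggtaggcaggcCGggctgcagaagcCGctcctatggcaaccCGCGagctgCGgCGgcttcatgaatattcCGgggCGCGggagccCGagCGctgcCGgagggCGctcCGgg
It holds 25 CG pairs and is 71.2% GC, and 89.3% of the windows hold fewer CG pairs. Over the channel genes, 51 had a window in the table. Where a gene had more than 1 window, the one with the most CG pairs was taken. The 14 higher genes among them then had a median of 16.5 CG pairs and the 6 lower ones 24.5. As the median of 6 is over all windows with no such choice, these medians cannot be set against it. Another pair of neighbours, Cacng4 and Cacng5 on chromosome 11, were both higher, and Cacng1 beside them had no counts.

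The sodium channel beta subunits are small adhesion-type proteins that tune gating and anchor the pore. Scn2b was at 184, 140 and 129 against 93.0, 100 and 78.8 CPM (0.73 ± 0.15, adjusted p = 0.000773, edgeR). Scn3b was at 213, 219 and 188 against 139, 119 and 123 CPM (0.70 ± 0.13, adjusted p = 0.000226, edgeR). Neither overlapped between regions. Scn3b held 43.9% ± 3.32 of beta TPM in the diencephalon and 28.1% ± 3.75 in the cortex. Scn4b was at 67.7, 13.6 and 6.73 against 20.3, 64.9 and 19.1 CPM, so that 1 library in each region stood far above the others (-0.21 ± 1.06, adjusted p = 0.909, edgeR).

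No tested TRP gene was lower by the edgeR test. In sum the 22 TRP genes were 1.73 times as high in the diencephalon, at 828, 740 and 798 against 468, 470 and 431 CPM, and most of that difference was Trpm3. Trpm3, a channel opened by heat and by the neurosteroid pregnenolone sulfate, was at 573, 471 and 516 CPM in the diencephalon and 265, 296 and 224 CPM in the cortex. The difference was 0.99 ± 0.13 on the log2 scale (SE), 1.99-fold, with an edgeR adjusted p of 5.2e-06 and no overlap. At 305 ± 22.9 TPM it ranked second of the 66 channel genes in the diencephalon, and at 133 ± 17.2 TPM sixth in the cortex. Trpm7, a magnesium-permeable channel fused to a kinase, was at 133, 123 and 151 against 113, 91.3 and 96.7 CPM (0.43 ± 0.14, adjusted p = 0.0225, edgeR). Its adjusted p was 0.129 without diencephalic replicate 3 and 0.107 without cortical replicate 2. Trpm2, a channel opened by oxidative stress through ADP-ribose, did not overlap but missed the threshold, at 19.0, 17.8 and 11.4 against 9.95, 10.03 and 8.01 CPM (0.77 ± 0.31, adjusted p = 0.0642, edgeR).

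The receptor-operated channel genes Trpc1, Trpc4, Trpc5 and Trpc7 did not pass. Trpc5, the most abundant of these in reads, was at 23.2, 37.1 and 33.1 against 20.8, 18.5 and 29.6 CPM (95% interval -0.05 to 0.95). Trpv2 was the only tested TRPV gene and did not pass, at 16.7, 18.8 and 15 against 15.6, 12.7 and 13.6 CPM (-0.29 to 0.83).

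**Figure D4:**
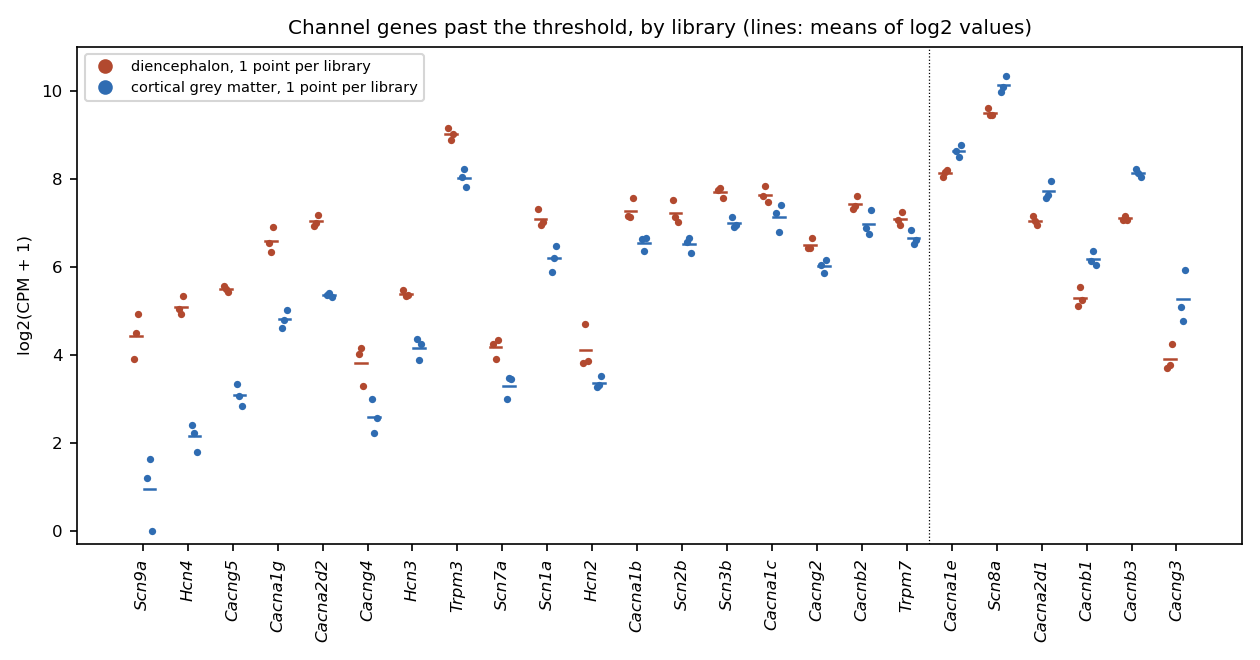
24 channel genes past the edgeR threshold, ordered by log2 difference, with log2(CPM + 1) in each library (red, diencephalon; blue, cortical grey matter) and a line at each region's mean. The dotted line separates the 18 higher from the 6 lower genes, and within every gene the red and blue points do not overlap.

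Many TRP genes were too low to test, and some of these were lopsided. Of the 22 untested subunit genes, 6 had no counts (Cacng1, Cacng6, Scn10a, Trpm5, Trpv1 and Trpv5), and the other 16 had at most 27 counts in a region. Trpv4, an osmotically and thermally sensitive channel described in astrocyte endfeet, had 17 counts in the diencephalon, of which replicate 1 held 11, and 1 in the cortex. Its ratio was 16.5 with an exact 95% interval of 2.59 to 690, which covers counting error only. Trpc6, opened by diacylglycerol, was opposite, with 1 count against 17, a cortical excess of 17.5 (2.74 to 732), and its cortical libraries held 7, 4 and 6. Without the count filter, edgeR called Trpv4 as higher and Trpc6 as lower, with 31 of 60 channels called against 21.2% of all genes. Trpm6, a magnesium channel, had 20 counts against 5, and Trpm4, a calcium-activated channel, 18 against 16. Trpa1, the irritant receptor, had 2 counts against 1. Trpm8, the cold receptor, had 6 against 0, with 5 of the 6 in diencephalic replicate 2. Its counts are 1.94-fold apart when 3 counts over the group stand for 0, with no allowance for counting error. Cacna2d4, an alpha2delta of the retina, had 27 counts against 10, Cacng8, a TARP of the hippocampus, 14 against 15, and Scn4a, Scn11a, Trpm1 and Trpv3 at most 5 in a region. The number of reads limits all of these genes.

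Channels that did not pass were not shown to be equal between regions. Over the 16 genes, log2 differences ran from -0.56 to 0.77 and the median 95% interval reached 0.49 to either side. Channel genes are long, and calls moved with gene length. Of the 1057 longest tested genes, 28.6% were higher in the diencephalon and 15.5% lower, whereas of the 1057 shortest 2.27% were higher and 20.3% lower. Among the 44 tested channels, 33 were longer than the median tested gene (3291 bases) and 20 were among those 1057 longest. With the trend on length removed, 19 of the 20 higher and all 8 lower calls were kept, with 28.1% of all genes called.

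Of 36 genes listed as partners or relatives of these channels, Trpc4ap among them, 27 were tested. Of these, 2 were higher, 7 were lower and 18 did not pass. The share called was 33.3%, near the 29.6% of all genes tested, of which 14.9% were higher and 14.8% lower. The list had a median log2 difference of 0.01. The channels' lean to the higher side was thus not seen in this list. Orai2, a pore of store-operated calcium entry, was at 56.5, 50.7 and 56.4 CPM in the diencephalon and 34.2, 25.3 and 25.3 CPM in the cortex (0.94 ± 0.19, edgeR adjusted p = 0.000774). Stim2, the sensor in the endoplasmic reticulum that opens such pores, was lower, at 41.7, 40.7 and 37.8 against 59.3, 73.4 and 78.8 CPM (-0.80 ± 0.18, adjusted p = 0.00126, edgeR). Fgf13, which binds the tails of sodium channel pores, was at 24.1, 20.9 and 32.6 against 70.5, 73.9 and 61.6 CPM (-1.41 ± 0.20, 2.66-fold lower, adjusted p = 9.55e-06, edgeR). The calcineurin subunits Ppp3ca and Ppp3r1, a phosphatase anchored at L-type channels, were lower with log2 differences of -0.92 ± 0.14 and -0.89 ± 0.14. Cachd1, an alpha2delta-like protein, was higher (0.64 ± 0.20, adjusted p = 0.0156, edgeR), with an adjusted p of 0.115 without diencephalic replicate 3 and 0.1004 without cortical replicate 2. Nedd4l, a ubiquitin ligase of sodium channels, and Rims1 and Rimbp2, which tie calcium channels to release sites, were also lower. Trpc4ap did not pass, at 45.9, 43.3 and 43.5 against 38.5, 31.7 and 45 CPM (adjusted p = 0.437, edgeR), and Trpc5os had no counts.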

How the data were processed

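Ribosome-bound mRNA was sequenced in 3 libraries per region. Amplification of cDNA was by the Ovation system and sequencing by Ion Proton, per the labels' protocols, which describe no molecular identifiers, so counting intervals cover counting error only. The authors' tool was RSEM and their build mm9, per the submitters' processing notes; for the aligner, the versions and the strand setting the sources used here give nothing. The deposited expected counts are RSEM's estimates per gene, and 3.64% to 3.99% of values were not whole. The deposited TPM values, scaled by effective length, served for shares, ranks and alternatives. The deposited gene lengths served for the check on length, and FPKM was not used.

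The expected counts were rounded and given TMM factors. The quasi-likelihood test of edgeR 4.0.16 (R 4.3.3) was then run on all genes that filterByExpr kept at a minimum count of 10. The model held region alone, dispersions were estimated robustly, and p-values were adjusted over all these genes by Benjamini-Hochberg, with a threshold of 0.05. SEs came from the F statistic, and intervals are 95%. CPM are rounded counts over TMM-scaled totals. The common biological coefficient of variation was 13.6%. The scripts were tested on simulated data.

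All members enter the counts; some are not reported here by name or drawn. Members, partner and marker lists were chosen with earlier results of these data known, and support nothing by themselves. The rule for named genes took every channel past the threshold or without overlap, the most abundant per subfamily by TPM, up to 4 partners per direction by adjusted p, and Slc1a3 and Rpl22. Other channels, Nedd4l, Rims1 and Rimbp2 were named after their values were seen. Promoter windows, gene order and overlaps are from RefSeq on GRCm38.p6, not mm9, and the windows shown were chosen after the values were seen. The results were recomputed with RLE size factors, without the filter, with a minimum count of 30, with DESeq2 1.42.0, with limma 3.58.1 and voom, with a replicate block, with limma on log2(TPM + 1) and log2(TPM + 0.1), with a length offset, and without each library in turn.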

Additional observations from a re-analysis of the deposited data

How the results depend on the processing

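Of the 28 channel calls, 17 held under every alternative in which the gene was tested, among them Cacna1b, Cacna1g, Cacna2d2, Cacnb1, Cacnb3, Cacng3, Cacng5, Scn1a, Scn8a, Scn9a, Scn2b, Scn3b, Trpm3, Hcn3 and Hcn4. DESeq2 called 15 higher and 8 lower, losing 5, among them Cacng2 (adjusted p = 0.0512), Scn7a (0.0603), Trpm7 (0.0501) and Hcn2 (0.103). Voom called 19 and 8, a minimum count of 30 called 16 and 8 of 35 tested, and RLE size factors 20 and 9. The share of all genes called was 24.1% with DESeq2 and 29.1% with voom. It was 36.3% with a minimum count of 30 and 29.6% with RLE size factors. Leaving out 1 library gave 15 to 23 higher and 8 to 9 lower channels, 1 to 3 higher partners, and over all genes 1121 to 1647 higher and 1178 to 1655 lower. TPM moved the median log2 difference of all genes to 0.22 with a pseudocount of 1, 0.23 with 0.1 and 0.21 without a filter. There, 958, 908 and 920 genes were lower, against 1559 in the main test, and 68.9% of calls were higher in the first of these, against 50.2%. With TPM and a pseudocount of 1, 18 of 52 channels were higher and 6 lower, against 21.5% of all genes called. With 0.1 these were 17 and 5, against 20.3% of all genes. Partners were higher for 5, 5 and 4 genes, and lower for 4 with the small pseudocount. Cacna1e (adjusted p = 0.159) and Cacna2d1 (0.0546) lost their call with log2(TPM + 1), as did Scn7a and Hcn2, although relative to the shifted median the first pair differed by -0.52 and -0.69. Cacng7 reversed to 0.027 with the length trend removed, and passed with RLE size factors (0.0499) and without the filter (0.0466); the cause was not tested.

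With the replicate number as a block, 19 channels were higher and 9 lower, and over all genes 1506 and 1531; Hcn2 had an adjusted p of 0.0638 and Cacng7 of 0.0466. Deviations of same-numbered libraries correlated at 0.06, -0.10 and 0.00, diencephalic replicate 1 correlated best with cortical replicate 2 (0.15) and diencephalic replicate 2 with cortical replicate 3 (0.18), and no label says that numbers share mice, so the block is not read as a pairing.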

Other observations

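Scn4b, which is known for its high level in striatal medium spiny neurons, stood high in diencephalic replicate 1 and cortical replicate 2 at 67.7 and 64.9 CPM, whereas the other 4 libraries lay between 6.73 and 20.3 CPM. A list of 11 striatal neuron genes, written after the values of Scn4b were seen, was compared with it as a description. In 8 of the 11, the same pair of libraries was the highest of its region. The share of all genes with this pattern was not counted, so the 8 of 11 supports nothing by itself. Over all genes tested, the deviations of this pair correlated at 0.15. Drd2, a dopamine receptor of striatal output neurons, was at 51.4, 24.0 and 26.4 CPM in the diencephalic and 11.7, 51.2 and 6.16 CPM in the cortical libraries. The list summed to 666, 447 and 460 against 398, 681 and 327 CPM. No other tested channel gene had so wide an interval (-3.07 to 2.64 on the log2 scale), and the source of these reads was not tested.

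Cacna1s, the skeletal muscle calcium channel pore, was counted 14 times in the diencephalon, of which replicate 2 held 9, and 2 times in the cortex. The ratio was 6.80 with an exact 95% interval of 1.56 to 61.6 that covers counting error only. Trpv6, a calcium-selective epithelial channel, was counted 2 and 9 times, with 6 of the 9 in cortical replicate 1, a cortical excess of 4.64 (0.959 to 44.1). Trpc2, which has no functional human counterpart and serves pheromone sensing in the mouse, was counted 5 and 0 times and overlaps other genes in RefSeq. Its counts are 1.62-fold apart when 3 counts over the group stand for 0, with no allowance for counting error. None of these 3 genes was tested.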
